A study of Mus musculus with 35 samples.

Results

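Genes of oxidative phosphorylation were examined for peaks of HA-tagged NELFA. This protein belongs to the negative elongation factor, NELF, which holds RNA polymerase II shortly after it has begun to transcribe. The members were the protein-coding nuclear genes of the RefSeq annotation whose symbols begin with Nduf, Uqcr, Cox4 to Cox8 or Atp5, together with Sdha, Sdhb, Sdhc and Sdhd. There were 96 of them among 21887 protein-coding genes on the assembled nuclear chromosomes: 49 of complex I, 4 of complex II, 8 of complex III, 18 of complex IV and 17 of complex V. The choice rested on symbols and used no measured value, but it was made with earlier results of these data known.

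The cells were E14, a mouse embryonic stem cell line, in medium with serum, LIF and 2i (the inhibitors PD0325901 and CHIR99021). They carried a doxycycline-inducible transgene coding for NELFA with a Strep-HA tag, a P2A peptide and EGFP, and all 7 ChIP-seq libraries came from cells given doxycycline at 0.4 µg/ml for 16 h. There were 4 libraries precipitated through the HA tag (3 with a first antibody, 1 with a second) and 3 input libraries, and no library from uninduced cells was among them. One peak list (mm10) stood for all of them, so the values below have no replicate error and no level per sample, the read depth behind them is unknown, and a list of peaks cannot check the labelled cell type. The 20 RNA-seq and 8 ATAC-seq libraries of the series were not analysed here.

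Oxidative phosphorylation makes most of the ATP of a respiring cell in the inner mitochondrial membrane. Complex I takes electrons from NADH and complex II from succinate, complex III passes them to cytochrome c, complex IV hands them to oxygen, and complex V, the ATP synthase, uses the resulting proton gradient to make ATP. Their subunits are encoded partly in mitochondrial DNA, but the genes described here are in the nucleus. Embryonic stem cells are known for a strong glycolytic metabolism beside a working respiratory chain.

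The sequences below give the bases before the annotated start of 8 members (RefSeq, GRCm38.p6, 5′ to 3′ in the direction of transcription). They show the start regions that the peaks touched or missed. Each stretch was limited to 200 bases and to bases outside any other gene. The first 5 are, for complexes I to V, the member with the highest peak near its start among those with a suitable stretch. Ndufa12 and Atp5e are contrasts without a peak within 2 kb, and Atp5b was added after its values were seen. Capitals mark the letters of searched motifs on either strand: GCGCATG for the core of the NRF1 site, CCGGAAG for ETS factors, AAGATGG for YY1, GGGCGG for SP and KLF factors and CCAAT for NFY. The letters TATAAA stood for a TATA box and occur in none of the 8 stretches. The letters of different motifs were counted separately where they overlap.
Ndufb7, chr8:83566558-83566757, plus strand: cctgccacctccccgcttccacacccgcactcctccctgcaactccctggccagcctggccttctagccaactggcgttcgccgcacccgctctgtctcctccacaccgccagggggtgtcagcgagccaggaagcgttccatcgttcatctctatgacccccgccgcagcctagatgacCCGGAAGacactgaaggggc
Sdha, chr13:74350241-74350316, minus strand: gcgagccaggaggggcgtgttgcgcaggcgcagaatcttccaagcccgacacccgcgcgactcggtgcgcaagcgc
Uqcrh, chr4:116075071-116075268, minus strand: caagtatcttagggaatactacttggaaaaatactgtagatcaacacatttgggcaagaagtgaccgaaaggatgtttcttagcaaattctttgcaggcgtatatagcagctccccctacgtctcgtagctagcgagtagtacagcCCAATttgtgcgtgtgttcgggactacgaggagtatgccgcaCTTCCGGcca
Cox7c, chr13:86046796-86046995, minus strand: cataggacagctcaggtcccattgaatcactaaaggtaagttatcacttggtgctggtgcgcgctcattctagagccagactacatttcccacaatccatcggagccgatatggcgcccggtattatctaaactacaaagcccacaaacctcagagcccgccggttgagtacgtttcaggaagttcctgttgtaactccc
Atp5g2, chr15:102671048-102671247, minus strand: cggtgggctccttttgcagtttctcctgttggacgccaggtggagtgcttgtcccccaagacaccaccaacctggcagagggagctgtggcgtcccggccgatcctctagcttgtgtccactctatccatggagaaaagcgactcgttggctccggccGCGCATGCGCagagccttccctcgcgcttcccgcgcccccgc
Atp5b, chr10:128083107-128083306, plus strand: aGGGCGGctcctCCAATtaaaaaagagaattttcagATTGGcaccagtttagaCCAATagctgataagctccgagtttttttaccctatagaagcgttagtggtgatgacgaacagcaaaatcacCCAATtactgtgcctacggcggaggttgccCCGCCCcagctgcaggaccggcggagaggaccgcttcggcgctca
Ndufa12, chr10:94198835-94199034, plus strand: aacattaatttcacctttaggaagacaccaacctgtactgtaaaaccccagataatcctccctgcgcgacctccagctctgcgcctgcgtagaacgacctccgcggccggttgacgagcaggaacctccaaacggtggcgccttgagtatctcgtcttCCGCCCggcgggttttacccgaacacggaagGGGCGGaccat
Atp5e, chr2:174464102-174464301, minus strand: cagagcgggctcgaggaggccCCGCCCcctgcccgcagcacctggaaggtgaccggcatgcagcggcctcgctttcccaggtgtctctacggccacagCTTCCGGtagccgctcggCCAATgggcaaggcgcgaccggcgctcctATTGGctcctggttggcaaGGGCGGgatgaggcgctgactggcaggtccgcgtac

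A gene was called occupied when the summit of a peak lay within 1 kb of either of its annotated boundaries. By this rule 28 of the 96 genes were occupied (29.2%, 95% Wilson interval 21.0 to 38.9%), where 18.8% of all protein-coding genes were. The interval covers counting error only, and no test of the gene set was made. In windows 5 to 7 kb outside the same genes, 6 of the 96 had a summit (6.25%), against 8.6% of all protein-coding genes. The fold enrichment of the strongest boundary peak, a linear ratio given by the authors' peak caller, ran from 1.82 to 5.58 over the 28 genes with a median of 2.36. Over the 4121 occupied protein-coding genes the median was 2.22. A fold of at least 3 was found at 5 of the 28 (17.9%) and at 750 of the 4121 (18.2%).

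**Figure D1:**
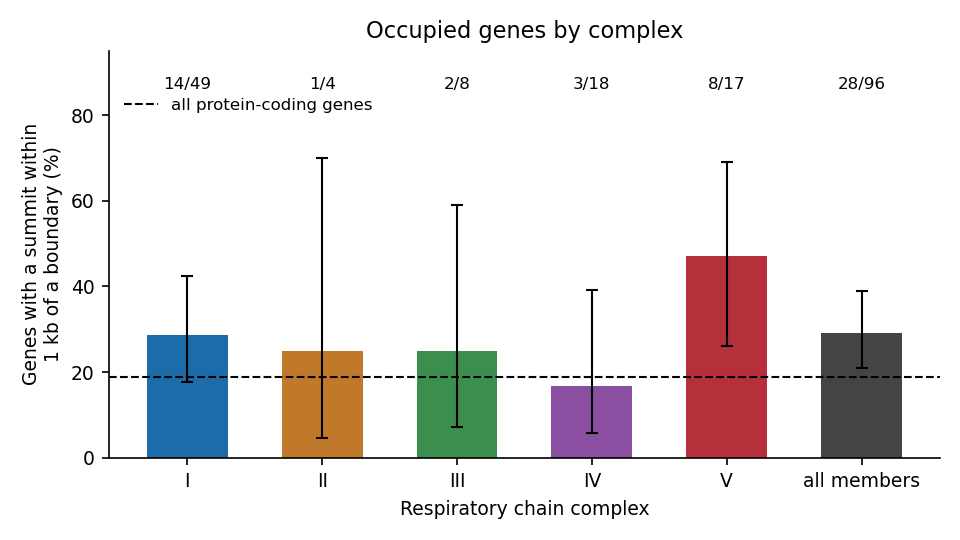
Share of genes of each complex, and of all 96, with a summit within 1 kb of a boundary (y axis, percent). Bars are shares, error bars 95% Wilson intervals, and numbers above are occupied genes over genes. Complex V stood highest with 8 of 17 and complex IV lowest with 3 of 18, and the dashed line marks the 18.8% of all protein-coding genes.

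The 5 complexes are small sets, and their intervals overlapped. Complex V had 8 of 17 genes occupied (47.1%, 26.2 to 69.0%), complex I 14 of 49 (28.6%, 17.8 to 42.4%), complex II 1 of 4, complex III 2 of 8 and complex IV 3 of 18 (16.7%, 5.84 to 39.2%). Only the interval of complex V lay above the 18.8% of all protein-coding genes. Among stronger peaks this no longer held. At or above the list's median fold of 2.09, complex V had 4 of 17 (23.5%, 9.56 to 47.3%), against 12.4% of all protein-coding genes. With a −log10 q limit of 4 the count was also 4 of 17, against 9.81% of all protein-coding genes, and over all members it was 16 of 96 (16.7%).

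In complex I, the catalytic core subunits that carry the flavin and the iron-sulfur clusters were occupied in 2 of 7 cases, the accessory subunits around them in 10 of 31, and the assembly factors in 2 of 8. The core genes were Ndufs7, whose protein holds the last iron-sulfur cluster before ubiquinone, and Ndufs1, which codes for the largest iron-sulfur subunit. Both had a fold of 2.72 and a −log10 q of 8.7. The peak of Ndufs7 (chromosome 10, 80249028 to 80249497) had its summit 4 bp outside the gene's start. The tRNA genes n-TFgaa3 and n-TNgtt7 had a boundary 65 and 58 bp from that summit, and the nearest transcript start listed for Ndufs7 lay farther inside the gene. The peak of Ndufs1 (chromosome 1, 63177024 to 63177326) had its summit 321 bp beyond the gene's higher-coordinate boundary, and 312 bp from a boundary of Eef1b2, which codes for a translation elongation factor subunit.

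Among the accessory subunits, Ndufa13 had the strongest peak of all members, with a fold of 5.58 and a −log10 q of 48.0 (chromosome 8, 69902983 to 69903522). Its summit lay 765 bp before the gene's start and 195 bp from a boundary of Tssk6, a kinase gene known from the testis. The nearest transcript start listed for Ndufa13 was 1303 bp from the summit. Ndufa13 had 4 further boundary summits with folds of 1.86 to 1.91, and stood in a 1 Mb window that held 224 peaks. Ndufb6, a subunit of the membrane arm, followed with a fold of 3.22 (−log10 q 14.0, chromosome 4, 40269586 to 40269880). Its summit lay 827 bp beyond the gene's end, 77 bp from a boundary of Topors and 185 bp from one of Smim27. The 2 strongest peaks of complex I thus had their summits nearer to another gene than to the member.

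Most of the other occupied accessory genes had their strongest summit close to the start. Ndufa4 was an exception, and for Ndufa2 no start side was assigned. The peak of Ndufb7 (fold 2.68) was centred 188 bp inside the gene, in a 1 Mb window of 117 peaks on chromosome 8. Ndufb8 (2.31) had its summit 72 bp, Ndufa11 (2.0) 75 bp, Ndufs6 (2.04) 50 bp and Ndufb4 (1.95) 46 bp inside the start. Ndufs6 shares its start region with Mrpl36, a gene of the mitochondrial ribosome, whose boundary was 71 bp from the summit. Ndufa7 (2.36) had its summit 33 bp before the start and 23 bp from a boundary of the ribosomal protein gene Rps28. Ndufa4, whose product is now counted with complex IV, had 2 peaks: one of fold 2.54 at 397 bp before the start, 122 bp from Phf14, and one of 2.31 at 114 bp inside. Ndufa2 (2.09) had its summit 134 bp inside its higher-coordinate boundary. The occupied assembly factors were Ndufaf5 (2.36), an enzyme that modifies a core subunit, with its summit 104 bp inside the start, and Ndufaf3 (2.04) with its summit 233 bp inside.

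In complex II the flavoprotein gene Sdha, which holds the site of succinate oxidation, was the occupied one, with a fold of 3.13 and a −log10 q of 13.0 (chromosome 13, 74350099 to 74350398). Its summit lay 14 bp inside the start, and the peak covered all 76 bases printed above, which separate Sdha from Ccdc127. Sdhb, the iron-sulfur subunit, and the membrane anchors Sdhc and Sdhd had no summit within 5 kb.

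Complex III had 2 small subunits occupied, both weakly. Uqcrh, the hinge protein that helps cytochrome c dock, had a fold of 2.13 (−log10 q 3.6, chromosome 4, 116075461 to 116075554). Its summit lay 450 bp before the start, outside the printed stretch, and 251 bp from a boundary of Lrrc41. Uqcrq had a fold of 1.82 (−log10 q 1.6, chromosome 11, 53430685 to 53430812), with its summit 49 bp inside its higher-coordinate boundary and 8 bp from one of Gdf9, an oocyte growth factor gene. None of the 3 genes for the core proteins and the Rieske iron-sulfur protein (Uqcrc1, Uqcrc2, Uqcrfs1) had a summit within 5 kb.

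Complex IV had 2 of 11 widely expressed subunits occupied and 1 of 7 isoforms known from particular tissues. Cox7c, a small membrane subunit, had a fold of 2.5 (−log10 q 6.6, chromosome 13, 86046585 to 86046815). The summit was 49 bp inside the start, with no other gene's boundary within 1 kb of it. Cox4i1, the widely expressed form of the largest nuclear-encoded subunit, had a fold of 2.41 (−log10 q 5.8, chromosome 8, 120668165 to 120668516), with its summit 138 bp inside its lower-coordinate boundary and a weaker summit 221 bp outside it. It stood in a 1 Mb window of 107 peaks, and boundaries of Gm27021 and Emc8 were 221 and 276 bp from the stronger summit. Cox6b2, an isoform known from testis, had a narrow peak of fold 2.04 (−log10 q 3.0, chromosome 7, 4752078 to 4752143). That summit was 965 bp inside the start of this short gene and 337 bp from its end.

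In complex V, 3 of 5 genes of the F1 head and central stalk were occupied, 2 of 4 of the peripheral stalk, 1 of 3 of the c ring and 2 of 5 of the small membrane subunits. The catalytic head is built from the α and β subunits. Atp5a1, the α subunit gene, had the highest fold of the complex, 3.59 (−log10 q 18.4, chromosome 18, 77773930 to 77774239). Its summit lay 287 bp inside the lower-coordinate boundary and 170 bp from a boundary of Haus1, and a stronger peak of fold 4.63 lay 2254 bp outside the gene. Atp5b, the β subunit gene, had a fold of 2.95 (−log10 q 11.0, chromosome 10, 128083245 to 128083496). It was centred 53 bp inside the start and covered 62 of the 200 bases printed above. Atp5c1, which codes for the turning γ subunit, had a fold of 2.04 at 124 bp inside. Atp5d and Atp5e, the other genes of the head and central stalk, had no summit within 5 kb.

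Of the 3 genes that code for the same c subunit of the rotor ring, Atp5g2 had a peak of fold 3.13 (−log10 q 13.0, chromosome 15, 102670845 to 102671128), and Atp5g1 and Atp5g3 had none within 5 kb. Its summit was 58 bp inside the start, and 81 of the 200 printed bases were covered, including both overlapping matches to the NRF1 core, which begin 42 and 39 bases before the start. In the peripheral stalk, Atp5pb (2.36) had its summit 52 bp inside the start, and Atp5h (2.04) had its summit 286 bp before the start and 111 bp from a boundary of Kctd2. The small subunit genes Atp5k (1.91) and Atp5mpl (1.95) had summits 53 and 44 bp inside a boundary.

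**Figure D2:**
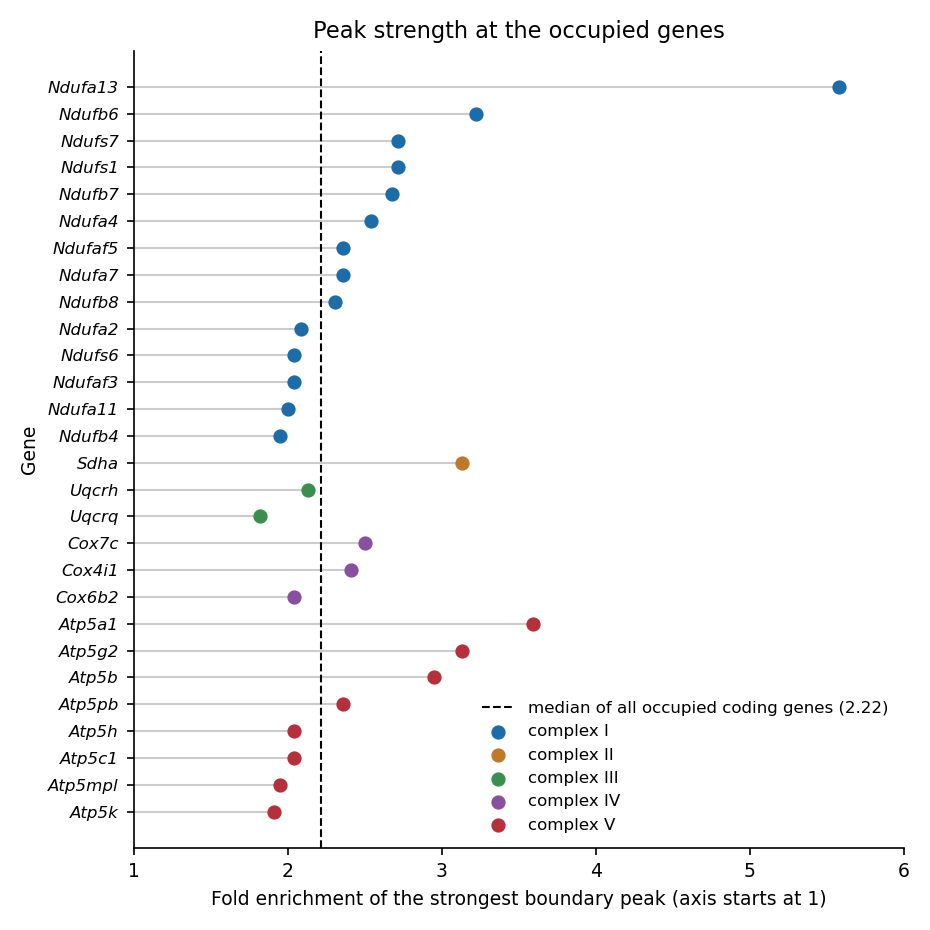
Fold enrichment of the strongest boundary peak (x axis, linear ratio, starting at 1) for each of the 28 occupied genes, coloured by complex. Ndufa13 stood apart at 5.58, the other 27 lay between 1.82 and 3.59, and the dashed line marks the median of all occupied protein-coding genes.

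The folds took few values. The 28 strongest peaks shared 19 distinct folds, and peaks with the same fold had the same −log10 q, as at Atp5c1, Atp5h, Cox6b2, Ndufaf3 and Ndufs6 (2.04 and 3.0). Differences of one such step have no measured error here. Their median width was 214 bp, close to the 211 bp of the strongest boundary peaks of all occupied genes.

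The strand was known for 78 of the 96 genes, those with an entry in the RefSeq promoter table. A summit lay within 1 kb of the start of 21 of these (26.9%), against 17.4% of the 17492 protein-coding genes with an entry, and within 1 kb of the end of 3 (3.85%), against 4.38%. Of the 3 end calls, 2 were at Ndufa13 and Cox6b2, which also had a start call, and the remaining one was Ndufb6. The member peaks were thus mostly start peaks. No start side was assigned to the occupied genes Ndufa2, Ndufs1, Uqcrq, Cox4i1, Atp5a1 and Atp5mpl.

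Most of the start summits lay near the start, but they ran from 765 bp before it (Ndufa13) to 965 bp inside it (Cox6b2). These 2 of the 21 were more than 500 bp away. Of the 21, 15 (71.4%) were inside the gene, against 74.1% of the 3039 start peaks of all protein-coding genes. The median position was 52 bp inside the start (quartiles 4 bp before and 75 bp inside), where the median over all protein-coding genes was 106 bp (quartiles 6 bp before and 243 bp inside). A band of 25 to 75 bp inside the start was not among the planned settings and surrounds the members' own median, so its shares only describe these summits. It held 9 of the 21 (42.9%), against 12.4% of all. Measured from the nearest transcript start listed in the promoter table, these values were 11 of 21 (52.4%) and 16.1%, and the medians 49 and 64 bp. The 9 genes were Ndufa11, Ndufb4, Ndufb8, Ndufs6, Cox7c, Atp5b, Atp5g2, Atp5k and Atp5pb. They belong to complexes I, IV and V, and their folds ran from 1.91 to 3.13.

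**Figure D3:**
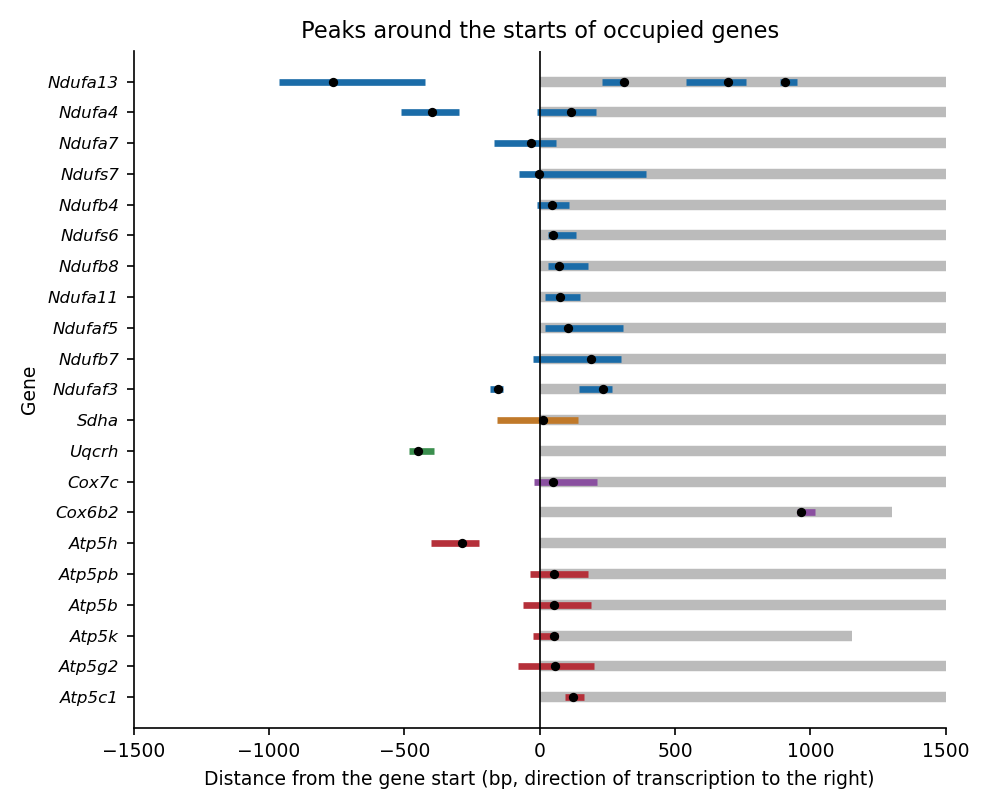
Peaks around the starts of the 21 genes with a start peak, aligned at the gene start (x axis, bp, transcription to the right). Coloured bars are peak intervals, black dots summits and grey bars the gene. Most intervals crossed or began close to the start, and those of Ndufa13, Ndufa4, Uqcrh and Atp5h with the highest fold lay before it.

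**Figure D4:**
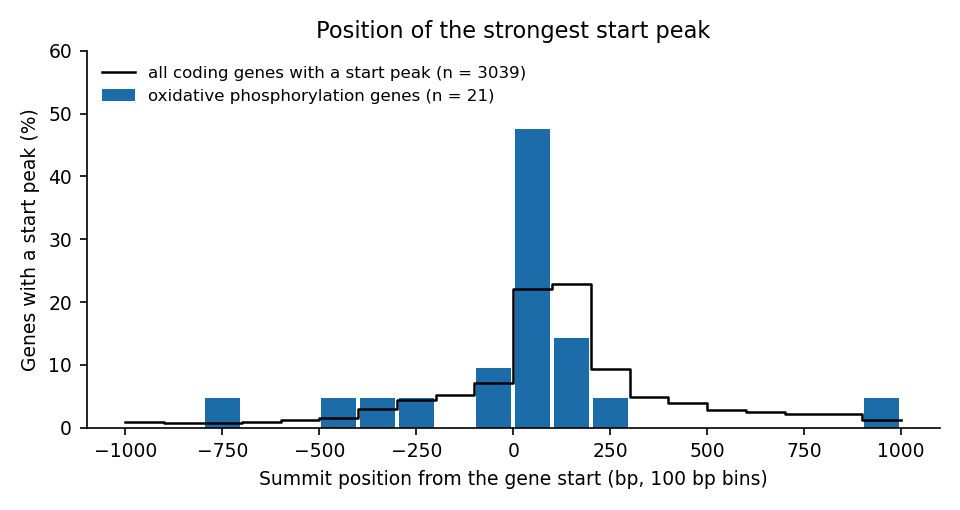
Position of the strongest start summit in 100 bp bins (x axis, bp from the gene start) as a percentage of genes with a start peak (y axis). Bars are the 21 oxidative phosphorylation genes, of which 10 fell in the first 100 bp of the gene, and the line shows all 3039 protein-coding genes with a start peak, of which 22.1% fell there.

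Close neighbours were common around these genes and moved with the calls. Another gene of any type had a boundary within 1 kb of a boundary of 61 of the 96 (63.5%), against 34.7% of all protein-coding genes. Of those 61, 25 were occupied (41.0%, 95% Wilson interval 29.5 to 53.5%), and of the 35 without such a neighbour 3 were (8.57%, 2.96 to 22.4%). Over all protein-coding genes the shares were 25.7% with and 15.2% without. The excess over all genes was therefore found in members with a close neighbour. The share of members without one was lower than that of all genes, but it rested on 3 occupied genes and its interval included 15.2%. When neighbours were limited to protein-coding genes, 21 of 54 were occupied with one (38.9%, 27.0 to 52.2%, against 27.2% of all). Without one, 7 of 42 were (16.7%, 8.32 to 30.6%, against 16.1%). Both of these intervals included the share of all genes.

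The strongest summit lay within 1 kb of another gene's boundary at 22 of the 28 occupied members (78.6%), against 37.1% of occupied protein-coding genes. At 9 it was nearer to the other gene than to the member: Ndufa13, Ndufb6, Ndufa4, Ndufa7, Ndufs1, Uqcrh, Uqcrq, Atp5a1 and Atp5h. The remaining 19 of 96 genes (19.8%, 13.1 to 28.9%) had a strongest summit no nearer to another gene, where 15.7% of all protein-coding genes did. Counted among occupied genes only, these were 19 of 28 members and 3439 of 4121 protein-coding genes. Which of 2 neighbours a shared peak belongs to cannot be told apart in the list. The neighbours of the 19 included Vmac beside Ndufa11, Ik beside Ndufa2, Dalrd3 beside Ndufaf3, Esf1 beside Ndufaf5, Kin beside Atp5c1 and Wdr77 beside Atp5pb, at 130 to 287 bp from the summit. Atp5k had the long noncoding gene Gm34319 at 55 bp. At Atp5b and Atp5g2 the other gene was a small RNA gene, Snord59a or Mir688, 782 and 803 bp away.

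**Figure D5:**
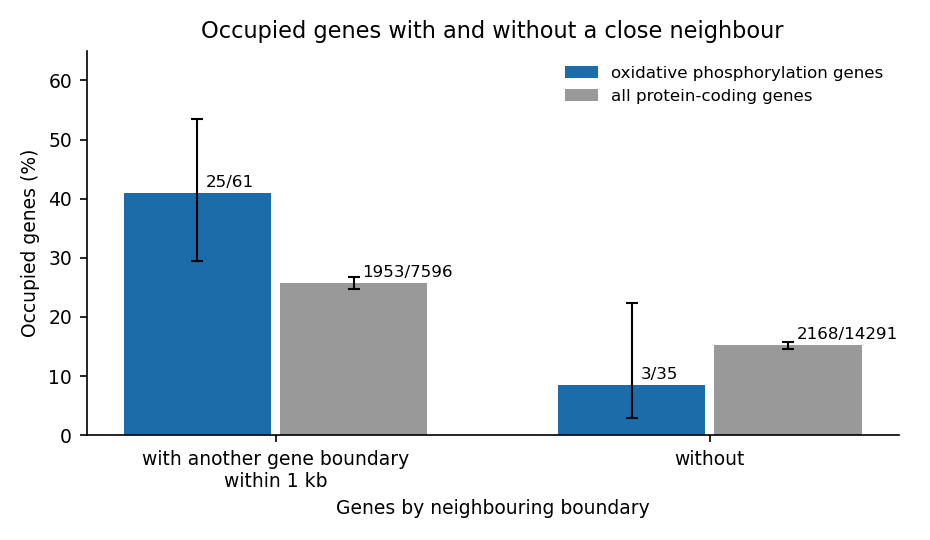
Share of occupied genes (y axis, percent) among genes with and without another gene boundary within 1 kb of their own, for oxidative phosphorylation genes (blue) and all protein-coding genes (grey). Error bars are 95% Wilson intervals and numbers are occupied genes over genes. The blue bar was above the grey one with a neighbour (41.0 against 25.7%) and below it without (8.57 against 15.2%).

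Of the 68 members without a boundary peak, 60 had no summit within 5 kb of the gene, a count that was not set beside all protein-coding genes. These were 29 of complex I, among them the core genes Ndufv1, Ndufv2, Ndufs3 and Ndufs8 and the assembly factor genes Ndufaf1, Ndufaf4, Ndufaf7 and Ndufaf8, 3 of complex II, 5 of complex III, 14 of complex IV and 9 of complex V. Both extra copies of Ndufb4 (Ndufb4b and Ndufb4c), the isoform Ndufa4l2 and 6 of the 7 tissue isoforms of complex IV were without a boundary peak. Of these isoforms and extra copies together, 1 of 10 was occupied (10.0%, 1.79 to 40.4%). That interval included the 18.8% of all protein-coding genes. A peak in the gene interior without one at a boundary was found at 5.21% of the members, against 13.4% of all protein-coding genes. Members with only an interior peak included Ndufaf2 (fold 3.54), Ndufaf6 (2.68), Cox7b2 (2.13) and Ndufa9 (2 peaks, each 1.82). Ndufb10 fell just outside the limit, with a summit of fold 1.82 at 1017 bp from its boundary and one of 4.58 at 1915 bp. Uqcr11 had a summit of fold 2.95 at 4079 bp, and Ndufb2 had summits of 1.95 and 1.77 at 2331 and 2367 bp.

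The accessory subunit genes without a summit within 5 kb were Ndufa1, Ndufa3, Ndufa5, Ndufa6, Ndufa8, Ndufa10, Ndufa12, Ndufab1, Ndufb1, Ndufb3, Ndufb5, Ndufb9, Ndufb11, Ndufc1, Ndufc2, Ndufs4, Ndufs5 and Ndufv3. In complex III they were Uqcr10 and Uqcrb besides the 3 named above. In complex IV they were Cox5a, Cox5b, Cox6a1, Cox6b1, Cox6c, Cox7a2, Cox7a2l, Cox7b and Cox8a of the widely expressed subunits, and Cox4i2, Cox6a2, Cox7a1, Cox8b and Cox8c of the isoforms. In complex V Atp5j, Atp5j2, Atp5l, Atp5md and Atp5o completed the list. Occupied and unoccupied members had similar gene lengths, with medians of 7080 and 7336 bp. Over all protein-coding genes the medians were 20204 and 16486 bp.

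The promoter windows of 300 bases (250 before and 50 after a start) had similar numbers of CG dinucleotides in members with and without a start peak. The median number of CG dinucleotides was 20 in the 21 windows with and 19 in the 57 without. Over all protein-coding genes it was 23 with and 10 without, so the members without a peak had CG-rich starts as well. The NRF1 core was found in 15 of the 78 member windows (19.2%), against 4.88% of all. The ETS letters were found in 18 (23.1%, against 11.9%) and the YY1 letters in 11 (14.1%, against 6.35%). NRF1, the ETS factor GABP and YY1 are known regulators of nuclear genes for the respiratory chain.

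Within the members, 5 of 21 windows with a start peak held the NRF1 core (23.8%) and 10 of 57 without (17.5%). Over all protein-coding genes the shares were 10% with a start peak and 3.8% without. Those with a peak were Atp5g2, Atp5k, Ndufa11, Ndufaf5 and Ndufb8. Cox5b, Cox6a1, Sdhb and Uqcrc1 were among those that held it without a start peak. The YY1 letters were in 5 of 21 (23.8%) and 6 of 57 (10.5%), where all protein-coding genes had 8.88% with and 5.82% without. The ETS letters were in 4 (19%) and 14 (24.6%), where all had 18% with and 10.6% without. The SP and KLF letters were in 8 (38.1%) and 27 (47.4%), where all had 65.1% with and 42.4% without. For the ETS letters and for those of SP and KLF factors, the members with a start peak thus had the lower share, and over all genes those with one had the higher. CCAAT was in 10 (47.6%) and 24 (42.1%), where all had 37.5% with and 39.5% without. TATAAA was in 3 (14.3%) and 5 (8.77%), where all had 8.72% with and 14.3% without. With 21 windows these shares are a description, and a match of letters is not a bound site.

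Other genes of the pathway were read from 4 further lists. Carriers and electron transfer genes outside the symbol rule were occupied in 7 of 17 cases (41.2%, 21.6 to 64.0%), against 18.8% of all protein-coding genes. The ADP/ATP carrier gene Slc25a4 had a fold of 3.81, the channel gene Vdac3 3.77, the cytochrome c gene Cycs 3.54 and Dhodh, which links pyrimidine synthesis to the chain, 2.45. These 4 lie on chromosomes 6 and 8, which held 27.4% of the peaks. Cyc1, the cytochrome c1 gene of complex III, had 2.13. Assembly factors outside the rule were occupied in 11 of 43 cases (25.6%), led by Ttc19 (2.63), Fastkd3 (2.54), Pet117 (2.31) and Sdhaf3 (2.18). The summit at Sdhaf3, on chromosome 6, lay 364 bp beyond the gene's end and 84054 bp from its start.

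Genes of pyruvate dehydrogenase and the citric acid cycle, which supply the electrons, were occupied in 3 of 19 cases (15.8%), namely Suclg2 (3.09), Dld (2.0) and Cs (1.91). Regulators of mitochondrial gene expression were occupied in 4 of 20 cases (20%). The gene of NRF1 itself, Nrf1, lies like Suclg2 on chromosome 6, which together with chromosome 8 held 27.4% of the peaks. Nrf1 had a fold of 5.58, at a summit 187 bp inside the start. The coactivator gene Pprc1 had 2.31, Yy1 2.09 and Slirp, which codes for an RNA-binding protein of mitochondria, 2.54. The lists of the citric acid cycle and of the regulators thus had shares near that of all protein-coding genes.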

How the data were processed

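The deposited data were 1 narrowPeak list of 59485 peaks, of which the 58625 on the assembled nuclear chromosomes were used. Per the submitters' processing notes, reads were handled with Bowtie2 2.2.9, Trim Galore 0.4.2, MACS2 and SAMtools 1.4 on mm10, with no order given. For the settings of the peak call and the pooling of libraries, nothing is stated (not given in the sources used here). The authors' columns hold, per peak, the fold enrichment as a linear ratio, the −log10 of p and of q (lowest −log10 q 1.31), a display score (not used) and the offset of the summit. Summits were set against genes of the RefSeq table of GRCm38.p6, the assembly mm10 names, with strand from its promoter table for 78 of the 96 members. Wilson intervals (95%) were computed in Python 3.11.15 (scipy 1.17.1, pandas 2.3.3, numpy 2.4.6), and plots drawn with matplotlib 3.10.9. The members and lists were chosen with earlier results of these data known. By rule, every member is accounted for in the counts (1 single-gene result is not reported here), with the 3 highest folds per complex in full, and up to 4 genes per other list. Further genes there (Cyc1) were named after their values were seen. Of 44 listed assembly factors Coa1 was not in the table under that symbol. Printed stretches needed at least 60 bases and a listed start at the gene boundary. This left out Ndufa13, the rule's first choice in complex I, and Ndufs7 (fold 2.72), the next. The overlap and distance code was tested on simulated summits. Alternatives were windows of 500 bp and 2 kb, stronger peaks, interval overlap, and subsets of genes.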

Additional observations from a re-analysis of the deposited data

How the results depend on the processing

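The 28 occupied members became 27 with a window of 500 bp (16.1% of all protein-coding genes), 29 with 2 kb (21.8%) and 28 by overlap of the interval (19.2%). Using only peaks no weaker than the median fold, there were 18 (18.8% of members, against 12.4% of all genes), and for −log10 q values of 4 or more there were 16 (16.7%, against 9.81%). All of these 18 and 16 were among the 28, as these settings only remove peaks. In the same order of these last 2 settings, start calls numbered 13 and 12 (16.7 and 15.4%). The shares of all protein-coding genes with a promoter entry were 11.8 and 9.38%. End calls numbered 1 and 1 (1.28% in both, against 2.68 and 2.18% of those genes). Complex III had 1 and 0, complex V 4 and 4, and complex I had 9 with the −log10 q limit. End calls rose to 7 with the 2 kb window (8.97%, against 7.09% of all protein-coding genes with a promoter entry), since the window was wider. The share of members occupied was 29.5% without assembly factors, 27.0% without chromosomes 6 and 8 (15.4% of all genes) and 26.2% outside 1 Mb windows of 30 or more peaks (13.5%). It was 8.57% (against 15.2%) for members with no other gene boundary within 1 kb. Settings added after seeing the data gave 41.0% (against 25.7%) with such a neighbour. They also gave 38.9% (against 27.2%) with another coding boundary within 1 kb and 16.7% (against 16.1%) without one. Counting summits from 0 changed no member's call. The ratio of median strength, members to all occupied genes, was 1.06 by fold and 1.25 by −log10 q. Control windows at 10 to 12 kb held a summit at 7.29% of members, against 8.69% of all genes. No paired analysis was possible because the list has no column for a single library, and for the same reason no library could be left out. Read depth, and so the smallest detectable peak, is unknown.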
